A study of Mus musculus with 6 samples.

Results

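The genes described are the expressed Zfp genes, the mouse genes named as zinc finger proteins. A gene was taken when its symbol was Zfp followed by digits alone, Zfp36 was left out because it encodes an RNA-binding protein of another finger type, and the mean over all 6 libraries had to reach 1 FPKM, the number of fragments per kilobase of a gene after scaling for library depth. The expression table of 22246 genes held 345 such Zfp genes, and 246 of them passed the level rule. The level used for the choice is a measured value, so the levels below are a description, while the comparison of groups was not used for the choice.

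The libraries came from HL-1, a mouse cell line established from atrial cardiomyocytes and here labelled as heart tissue of strain C57BL/6. In 3 libraries the cells carried a short hairpin RNA (shRNA) labelled as directed against Smyd4, a lysine methyltransferase family member, and in 3 libraries a control shRNA. Total RNA was sequenced after Trizol extraction, and the study set out to compare cells of lowered Smyd4 with control cells. The time after delivery of the shRNA, the number of hairpins or clones and whether replicates were separate cultures are not given in the labels. The p-values therefore reflect the spread among these samples alone, and that spread may be technical.

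Most Zfp genes encode proteins with rows of C2H2 fingers, short loops in which paired cysteines and histidines hold a zinc ion and whose tips read DNA bases. Many also carry a KRAB domain, which binds the corepressor Trim28 and through it the H3K9 methyltransferase Setdb1 and HP1 proteins. KRAB zinc finger genes lie in tandem clusters that grew by gene duplication, and several are known for silencing retroelements and imprinted loci. A smaller number of genes with the same naming have a few fingers and quite different roles, such as ribosome quality control or spindle assembly.

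The depth, the target and the identity of the cells were checked first. The libraries held 20755856 to 26387606 reads assigned to genes, as recovered from the deposited values. Smyd4 stood at 12.6, 12.3 and 11.9 FPKM in the libraries labelled Smyd4 shRNA, against 12.5, 12.8 and 13.5 FPKM in the control libraries, with an exact two-sided permutation p of 0.2 where 0.1 is the smallest possible. The mean was 5.07% lower in the labelled libraries, but the ranges overlapped and the difference did not pass in the limma fit described below. The label is therefore not borne out by a clear fall of Smyd4 mRNA, and each direction below refers to the label of the libraries. Of 14 atrial cardiomyocyte markers 12 were in the table and 5 reached 1 FPKM. Their summed level was 173 to 175 FPKM in the labelled libraries and 166 to 168 FPKM in the control libraries, most of it Gja1. Tnnt2, Nkx2-5 and Gata4 were higher in the labelled libraries, Nppb was lower and Gja1 did not pass. Nkx2-5 averaged 7.68 FPKM in the labelled libraries and 3.57 FPKM in the control libraries, and Nppb 0.484 and 2.15 FPKM. Myh6, Myl7, Actc1, Ryr2, Gja5 and Tbx5 were near 0 in both groups, and Nppa was not analysed here. The 6 fibroblast markers, 5 of them at 1 FPKM or more, summed to 270 to 282 FPKM in the labelled libraries and 239 to 246 FPKM in the control libraries. These markers went opposite ways, with 2 higher and 2 lower. Col1a1 averaged 69.3 FPKM in the labelled libraries and 37.6 FPKM in the control libraries, while Dcn averaged 1.72 FPKM in the labelled libraries and 26.3 FPKM in the control libraries. The part of these differences in the results below was not tested. The 4 endothelial markers summed to at most 0.567 FPKM and the 4 macrophage markers to at most 2.15 FPKM in any library, with Ptprc at or near 0.

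The sequences of Zfp52 are shown because this gene had the largest change of all 246 members and belongs to a family of close copies, so the reads counted for it must be told apart from those of its neighbours. The coding sequence of a C2H2 finger with its linker runs over 84 bases. Zfp52 held 9 units of this exact length and linker, fewer than its 14 fingers by the looser pattern used below, in the GENCODE M21 coding sequence, and the 20 other expressed members of its cluster on chromosome 17 held 138. Among these 9, the unit most like one of another member differed from it at 8 of 84 bases, and the least alike at 15. Capitals mark the codons of the paired cysteines and histidines, and positions count from the first base of the coding sequence.
Zfp52, bases 1396 to 1479: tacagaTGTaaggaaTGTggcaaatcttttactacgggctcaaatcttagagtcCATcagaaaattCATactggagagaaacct
Zfp53, bases 1768 to 1851, its closest unit: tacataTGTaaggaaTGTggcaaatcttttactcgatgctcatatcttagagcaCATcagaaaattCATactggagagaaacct
Zfp52, bases 1312 to 1395, the least alike unit: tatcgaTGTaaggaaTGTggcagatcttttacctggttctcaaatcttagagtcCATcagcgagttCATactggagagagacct
The first pair was 90.5% identical. The third unit was 82.1% identical to the same unit of Zfp53, and the median best identity over the 9 units was 85.7%. In the first pair 7 of the 8 differences lie between the last cysteine codon and the first histidine codon, the stretch of a finger that contacts DNA. Over the whole Zfp52 transcript 7.61% of 31-base words also occurred in transcripts of other genes, against a median of 1.38% over the members.

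The expressed Zfp genes were expressed at low levels. Their mean level ran from 1.001 to 57.6 FPKM with a median of 3.41 FPKM, against a median of 9.53 FPKM over the 11325 genes tested. Together they summed to 1322, 1331 and 1330 FPKM in the labelled libraries and to 1375, 1367 and 1347 FPKM in the control libraries. Each labelled library lay below each control library in this sum. The same order held for their share of all reads, which was 0.604%, 0.622% and 0.616% in the labelled libraries and 0.641%, 0.643% and 0.625% in the control libraries. In bulk RNA, fewer cells that express a gene and less of its RNA per cell cannot be told apart.

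Zfp706, a small protein known from mouse embryonic stem cells leaving self-renewal, had the highest level at 56.0, 56.8 and 58.1 FPKM in the labelled libraries and 58.9, 57.6 and 58.0 FPKM in the control libraries. The ranges overlapped. Zfp622, a factor of large ribosomal subunit maturation, was next in level and was lower in the labelled libraries, as given below. Zfp207, Zfp740, Zfp598 and Zfp703 followed with means between 27.6 and 31.03 FPKM over all libraries. At the other end, Zfp438, Zfp90 and Zfp418 lay just inside the level rule with means of 1.001, 1.02 and 1.04 FPKM. Just outside it were Zfp689, Zfp85 and Zfp109 with 0.9996, 0.999 and 0.989 FPKM.

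Most members differed little between the groups. In limma, fitted on log2(FPKM + 0.5) over all 11325 tested genes with Benjamini-Hochberg adjustment at 0.05, 19 of 246 members were higher in the labelled libraries, 36 were lower and 191 did not pass. This is 22.4% of the members, against 48.3% of all genes tested, of which 25.1% were higher and 23.3% lower. In 86 members the 3 values of one group all lay on one side of the 3 of the other, 31 above and 55 below control. That is fewer in proportion than the 57.8% of all tested genes, of which 30.2% lay above and 27.6% below. The median log2 change was -0.03 over the members and 0.02 over all tested genes, and the sign of the members' median flipped under quantile normalization, where it was 0.03 and that of all tested genes 0.04. The split of calls depended on the setting. Without the filter on low values 12 members were higher and 29 lower, against 25.3% of all 22246 genes past the threshold in either direction. The split was 29 higher and 27 lower under quantile normalization (background 27.9% higher and 21.8% lower). It was 8 higher and 31 lower in DESeq2 on recovered reads (background 15.0% higher and 17.6% lower of 17068 genes). The backgrounds without the filter and in DESeq2 include genes under 1 FPKM, so they are not matched in level to the members.

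The members' share of calls was below that of other genes mainly at low levels. Between 1 and 2 FPKM, 4 of 60 members passed (6.67%), against 29.8% of all tested genes at that level. Between 2 and 5 FPKM it was 17 of 106 members (16.04%) against 39.1%, and between 5 and 10 FPKM 19 of 52 members (36.5%) against 46.2%. At 10 FPKM and above 15 of 28 members passed (53.6%), against 57.3%. The standard error was much alike, with a median of 0.09 for members and 0.10 for all genes between 1 and 2 FPKM on the log2 scale. The size of change differed more: its median was 0.09 for members and 0.18 for all genes in that range, and 0.11 and 0.12 at 10 FPKM and above. For 239 of 246 members the 95% interval of the log2 change lay within a 1.5-fold change in either direction, including 189 of the 191 that did not pass. Such intervals were not counted over all tested genes.

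**Figure D1:**
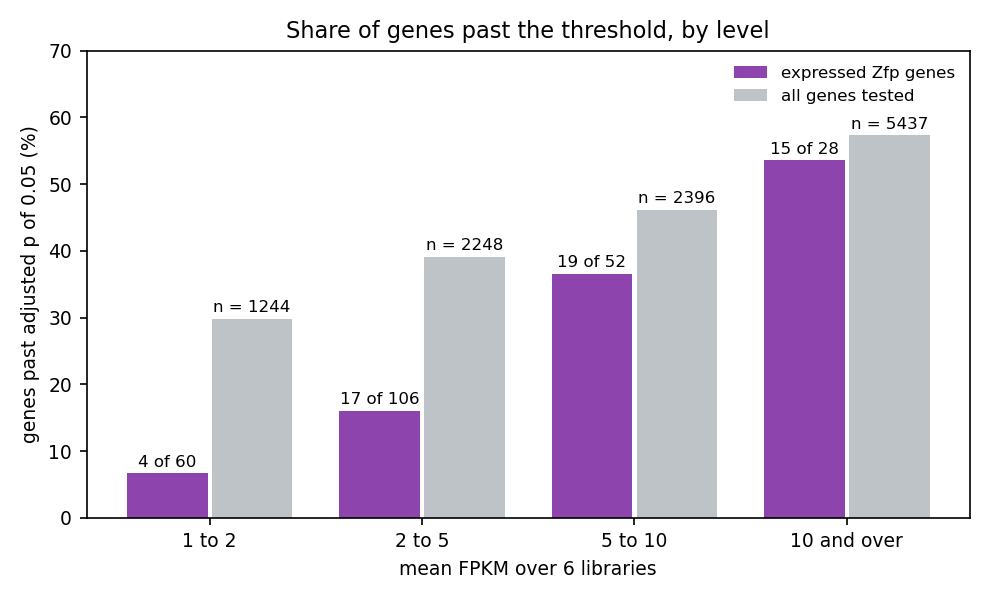
Share of genes past a limma adjusted p of 0.05 (y axis, percent) in 4 ranges of mean FPKM over 6 libraries (x axis), for the expressed Zfp genes beside all genes tested. The bars differ most between 1 and 2 FPKM, with 6.67% of Zfp genes against 29.8% of all genes, and least at 10 FPKM and above, with 53.6% against 57.3%.

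The changes that passed were mostly small. Of the 55 members past the threshold, 16 changed by more than 1.25-fold on the log2(FPKM + 0.5) scale, 5 higher and 11 lower, and 1 changed by 2-fold. These sizes were not counted over all tested genes. The median size of the log2 change was 0.10 over all members and 0.13 over all tested genes. In all 55 the values of the 2 groups did not overlap. The log2 changes ran from 0.07 in Zfp207 to 0.73 in Zfp395 among those higher, and from -0.12 in Zfp428 to -1.08 in Zfp52 among those lower. On this scale the change of low genes is understated. Among the 5 members with one group mean under 1 FPKM, 3 passed (Zfp605, Zfp287 and Zfp418), and such genes entered through the group in which they were high.

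**Figure D2:**
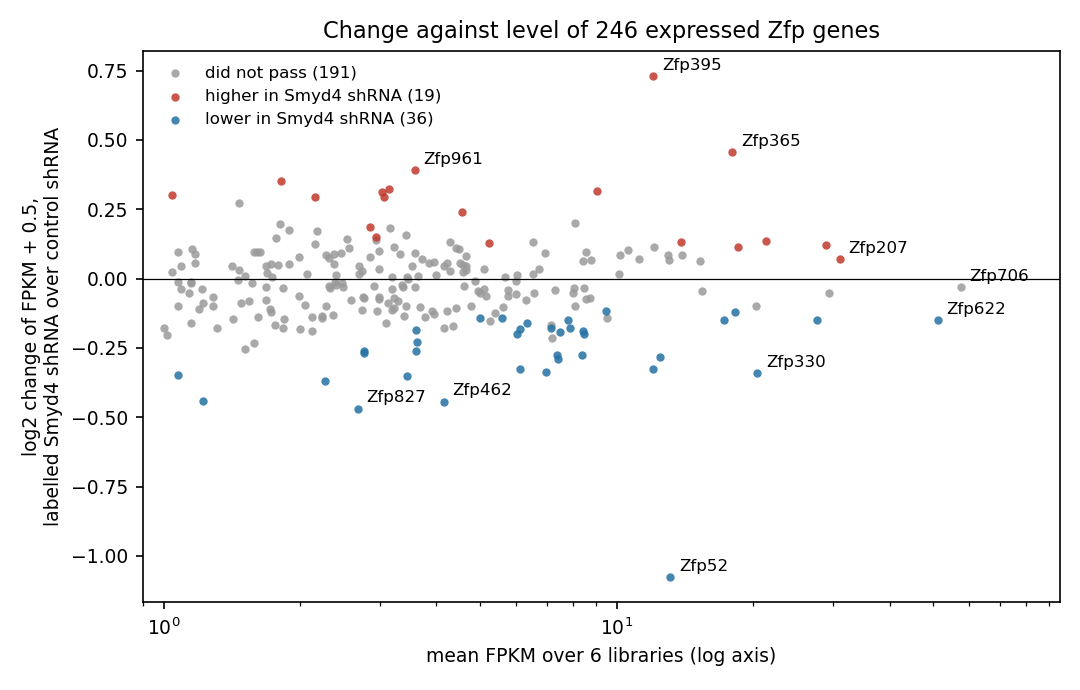
Log2 change of FPKM + 0.5, labelled Smyd4 shRNA over control shRNA (y axis), against mean FPKM over 6 libraries on a log axis (x axis), with 1 point for each of the 246 expressed Zfp genes. Most points lie close to 0, Zfp52 stands alone at -1.08, and Zfp395 and Zfp365 lead the rises at 0.73 and 0.46.

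Zfp52 (ENSMUSG00000051341) lies on chromosome 17 from 21555046 to 21562066 of GRCm38 on the plus strand and encodes a KRAB protein with 14 fingers by pattern. It had 7.69, 8.28 and 8.86 FPKM in the labelled libraries, against 18.8, 17.7 and 17.5 FPKM in the control libraries. Each labelled value was below each control value by a wide gap. The labelled mean was 8.3 ± 0.59 FPKM and the control mean 18 ± 0.71 FPKM (SD, n = 3 each), so the level fell by 54.03%. The log2 change was -1.08 (standard error 0.05; limma, adjusted p = 1.9e-06), on 399 to 979 reads per library.

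The next falls were in genes of several kinds. Zfp827, whose human counterpart recruits the NuRD remodelling complex to telomeres, had 2.20, 2.13 and 2.19 FPKM in the labelled libraries, against 3.31, 3.14 and 3.15 FPKM in the control libraries, and the groups were well apart. Its log2 change was -0.47 (standard error 0.05; limma, adjusted p = 0.000224). Zfp462, a protein with 34 fingers by pattern that works with the H3K9 methyltransferases Ehmt1 and Ehmt2 in mouse embryonic stem cells, had 3.45, 3.34 and 3.55 FPKM in the labelled libraries and 4.91, 5.0 and 4.69 FPKM in the control libraries. Its mean fell by 29.2%, with no overlap (log2 change -0.44, standard error 0.05; limma, adjusted p = 0.000143). Zfp605 stood at 0.985, 0.917 and 0.967 FPKM in the labelled libraries and at 1.53, 1.23 and 1.69 FPKM in the control libraries. This is a low gene with 70 to 150 reads per library and a wide spread among controls (log2 change -0.44, standard error 0.11; limma, adjusted p = 0.0105). Zfp688 averaged 1.92 ± 0.232 FPKM in the labelled libraries and 2.62 ± 0.110 FPKM in the control libraries (SD, n = 3 each).

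In the other 5 of the 10 largest falls the mean fell by 21.0% to 29.9%. Zfp608, known in mouse thymocytes for blocking expression of the Rag recombinase genes, averaged 2.97 ± 0.178 FPKM in the labelled libraries and 3.92 ± 0.0823 FPKM in the control libraries. Zfp330, a nucleolar protein with no finger found by the pattern, averaged 17.98 ± 1.11 FPKM in the labelled libraries and 22.9 ± 1.09 FPKM in the control libraries. The KRAB genes Zfp287 and Zfp948 averaged 0.887 and 6.11 FPKM in the labelled libraries, against 1.27 and 7.84 FPKM in the control libraries. Zfp513, whose human counterpart is linked to inherited retinal degeneration, averaged 10.6 ± 0.637 FPKM in the labelled libraries and 13.5 ± 1.01 FPKM in the control libraries. Zfp513 overlaps Snx17 on the opposite strand, and the sources do not state whether reads were counted by strand. The call on Zfp287 was lost in 4 of 15 alternatives. The adjusted p of these 10 genes in limma ran from 1.9e-06 to 0.0177.

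Zfp395 (ENSMUSG00000034522; chromosome 14, 65358676 to 65398930, plus strand) had the largest rise. Its human counterpart binds regulatory DNA of the huntingtin gene and of papillomaviruses, and a single finger was found in it. It had 15.7, 15.0 and 14.8 FPKM in the labelled libraries, against 8.56, 9.04 and 9.21 FPKM in the control libraries. The groups were far apart, with means of 15.2 ± 0.502 FPKM in the labelled libraries and 8.94 ± 0.339 FPKM in the control libraries (SD, n = 3 each), a ratio of 1.70. The log2 change was 0.73 (standard error 0.04; limma, adjusted p = 3.4e-06). Zfp365 (chromosome 10, 67886103 to 67912662, minus strand), a partner of the scaffold protein Disc1 in which the pattern found no finger, had 21.2, 20.5 and 20.9 FPKM in the labelled libraries and 15.4, 14.8 and 15.1 FPKM in the control libraries. Replicates lay close together and the groups did not overlap (log2 change 0.46, standard error 0.03; limma, adjusted p = 8.7e-06).

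The other rises were smaller. The KRAB gene Zfp961 had 4.24, 3.74 and 4.40 FPKM in the labelled libraries and 2.71, 3.11 and 3.27 FPKM in the control libraries (log2 change 0.39, standard error 0.08; limma, adjusted p = 0.00484). Zfp672 and Zfp692 are neighbours on chromosome 11, from 58307069 to 58330339 with both included. Zfp692, known as a binding protein of an AICAR-responsive DNA element, averaged 10.1 ± 0.619 FPKM in the labelled libraries and 7.99 ± 0.296 FPKM in the control libraries. Zfp672 averaged 3.54 ± 0.158 FPKM in the labelled libraries and 2.73 ± 0.0651 FPKM in the control libraries. Zfp345, Zfp580, Zfp418, Zfp846 and Zfp563 complete the 10 largest rises, with log2 changes from 0.29 to 0.35 and limma adjusted p between 0.0054 and 0.0377. Zfp418, studied in cardiac hypertrophy in mice, had 1.24, 1.16 and 1.21 FPKM in the labelled libraries and 0.798, 0.867 and 0.984 FPKM in the control libraries, on 52 to 88 reads. Zfp345 shared 50.8% of its 31-base words with other genes, so its value is uncertain. These 5 calls did not hold in every alternative, and in DESeq2 on recovered reads their adjusted p ran from 0.0568 to 0.186.

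**Figure D3:**
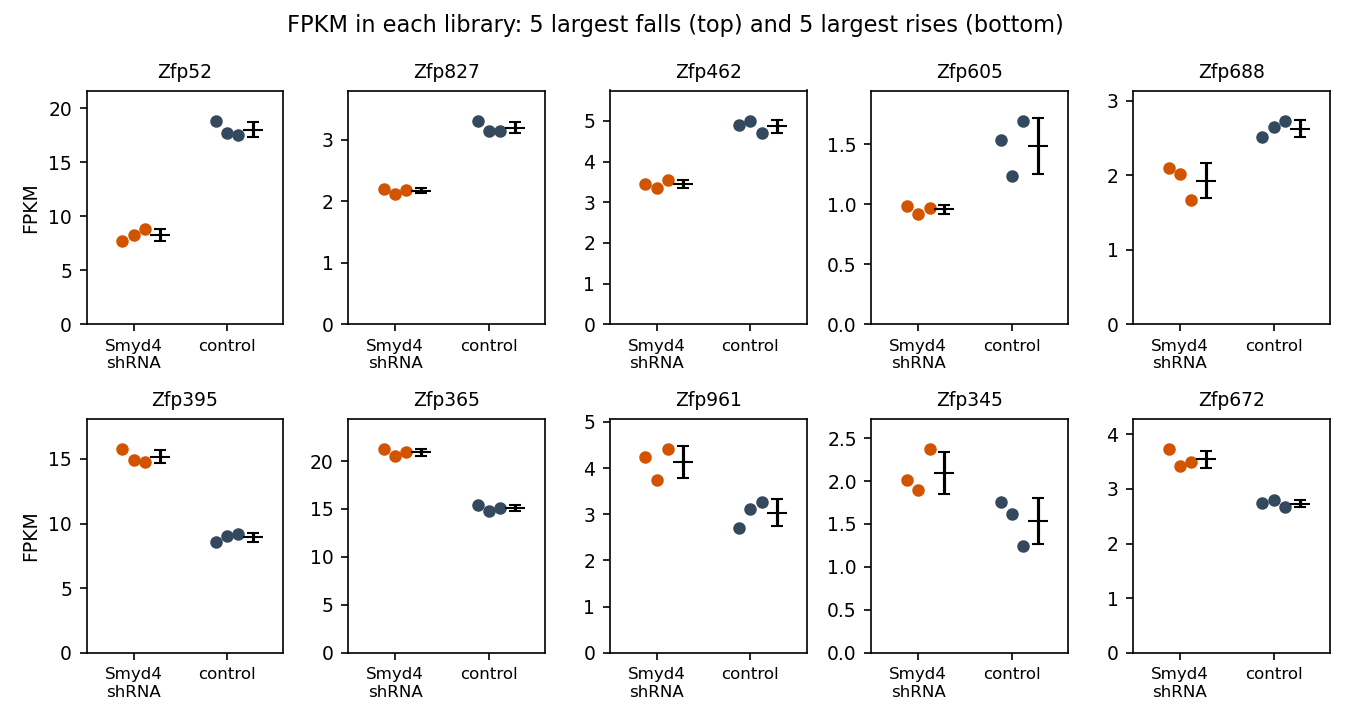
FPKM (y axis, from 0) in each library labelled Smyd4 shRNA and each control library for the 5 largest falls (top row) and the 5 largest rises (bottom row), with the mean ± SD of 3 libraries beside the points. In every panel the groups do not overlap; Zfp52 sits at 7.69 to 8.86 FPKM in the labelled libraries and 17.5 to 18.8 FPKM in the control libraries.

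The members were then grouped by what their proteins carry. A KRAB pattern was found in 130 members, 114 coding members had none, and the 2 members annotated as a pseudogene or a non-coding RNA had no class. How many KRAB domains the pattern misses was not measured, so the members without it may include KRAB genes. KRAB members were lower in level, with a median of 2.76 FPKM against 5.07 FPKM for members without the pattern. They held a median of 12 fingers, and 71.5% of them lay in clusters, against 30.7% of members without the pattern. Of the KRAB members 8 were higher and 14 lower (16.9% past the threshold), and of the others 11 were higher and 22 lower (28.9%). In DESeq2 on recovered reads 12 KRAB members passed instead of 22. Both shares lie below the 48.3% of all tested genes. Within 2 to 5 FPKM 17.9% of KRAB members and 13.2% of the others passed, and within 5 to 10 FPKM 27.8% and 41.2%. The median log2 change was -0.02 in KRAB members and -0.04 in the others.

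The 32 members with fewer than 5 fingers and no KRAB pattern stood out by level, with a median of 10.1 FPKM and a range of 1.46 to 57.6 FPKM. Of these 32, 14 passed (43.8%, 6 higher and 8 lower), against 48.3% of all tested genes. Among all tested genes 46.2% passed between 5 and 10 FPKM and 57.3% at 10 FPKM and above. The share of this class was not compared at matched level. Zfp395 and Zfp365 belong to this class, as do Zfp330 and Zfp608. Of the 82 members with 5 or more fingers and no KRAB pattern, 5 were higher and 14 lower (23.2%), against 48.3% of all tested genes. Related gene families named by other symbols gave 2 higher and 7 lower of 31 tested Zbtb genes, 1 higher and 0 lower of 14 tested Zkscan and Zscan genes, and 1 higher and 6 lower of 11 tested Klf genes. The shares past the threshold were 29.0%, 7.14% and 63.6% in that order, against 48.3% of all tested genes.

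**Figure D4:**
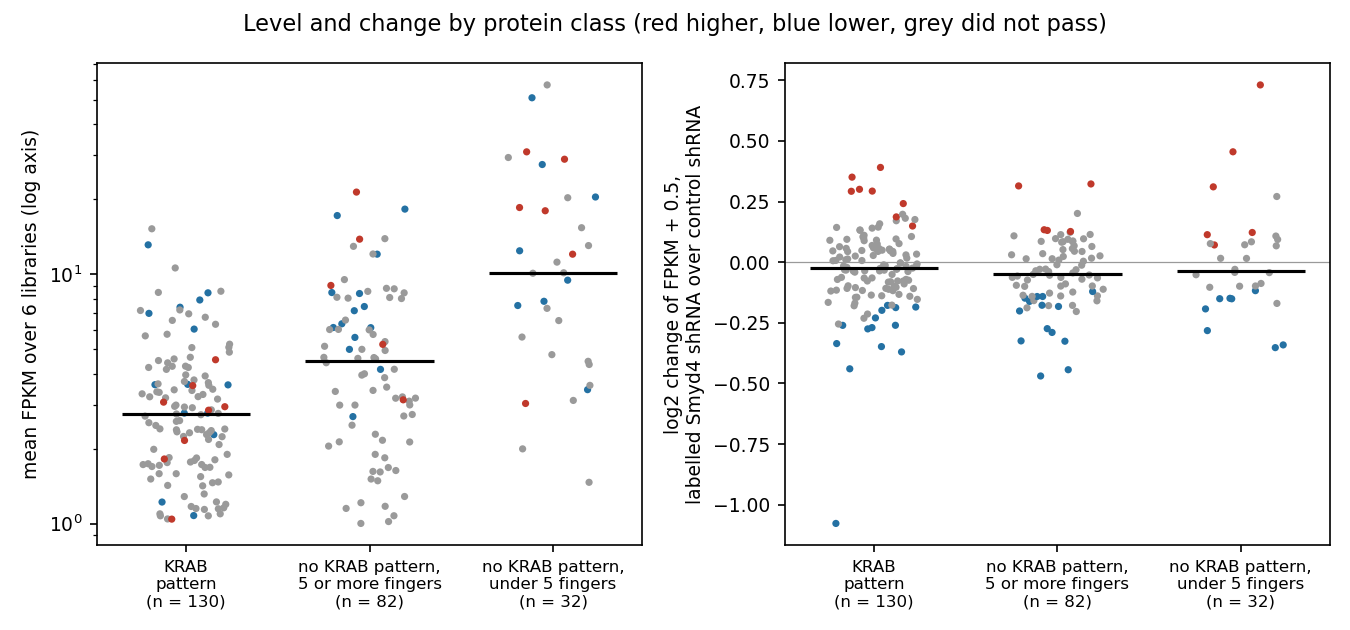
Mean FPKM over 6 libraries on a log axis (left) and log2 change of FPKM + 0.5, labelled Smyd4 shRNA over control shRNA (right), for members with a KRAB pattern, members with 5 or more fingers and no KRAB pattern, and members with fewer than 5 fingers and no KRAB pattern. Each point is a gene, bars are medians, and the median levels are 2.76, 4.50 and 10.1 FPKM in that order, while the median changes are -0.02, -0.05 and -0.04.

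Several members have roles of their own. Zfp57, the KRAB protein that keeps methylation at imprinted loci, had 4.66, 4.71 and 4.45 FPKM in the labelled libraries and 4.57, 4.45 and 4.22 FPKM in the control libraries, and the ranges overlapped. Zfp809, the KRAB protein that silences murine retroviruses through the proline tRNA primer binding site, was lower at 7.83, 8.27 and 7.47 FPKM in the labelled libraries, against 8.93, 9.20 and 8.90 FPKM in the control libraries (log2 change -0.19, standard error 0.04; limma, adjusted p = 0.00812). The call on Zfp809 was lost in DESeq2 on recovered reads, with an adjusted p of 0.218. Zfp281, a repressor of pluripotency genes, fell by 18.5%, to 11.2 ± 0.302 FPKM in the labelled libraries against 13.7 ± 0.765 FPKM in the control libraries. Zfp148, a factor of GC-rich promoters, fell by 13.3%, and Zfp217, an oncogene product of breast tumours in humans, fell by 19.3%.

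Members linked to translation, mitosis and protein turnover moved by small amounts. Zfp598, the ubiquitin ligase that detects collided ribosomes, had 30.9, 30.4 and 29.4 FPKM in the labelled libraries and 28.1, 27.96 and 27.1 FPKM in the control libraries (log2 change 0.12, standard error 0.03; limma, adjusted p = 0.0111). Zfp622 had 49.5, 47.4 and 48.3 FPKM in the labelled libraries and 53.3, 53.9 and 54.3 FPKM in the control libraries (log2 change -0.15, standard error 0.03; limma, adjusted p = 0.00193). These 2 ribosome-linked genes went opposite ways, with groups that did not overlap. Zfp91, a ubiquitin ligase of the noncanonical NF-kB pathway, was 9.94% higher, and Zfp207, a kinetochore and spindle factor, 5.12% higher with a limma adjusted p of 0.0462. The call on Zfp207 was lost in 11 of 16 alternatives. Zfp703, a corepressor known in human breast tumours, fell by 9.98%, while its relative Zfp503 averaged 15.2 FPKM in the labelled libraries and 15.6 FPKM in the control libraries.

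The remaining members named for their roles did not pass. Zfp106, an RNA-binding protein needed in motor neurons and muscle, averaged 19.6 FPKM in the labelled libraries and 21.0 FPKM in the control libraries (limma, adjusted p = 0.0552). Zfp292 averaged 4.94 FPKM in the labelled libraries and 5.55 FPKM in the control libraries (limma, adjusted p = 0.0576). Zfp516, an activator of brown fat genes, averaged 8.52 FPKM in the labelled libraries and 8.98 FPKM in the control libraries. Zfp335, a component of H3K4 methyltransferase complexes, averaged 6.05 FPKM in the labelled libraries and 5.98 FPKM in the control libraries. Zfp697 averaged 2.91 FPKM in the labelled libraries and 3.29 FPKM in the control libraries. The members other than Zfp330, Zfp365, Zfp503 and Zfp703 in which the pattern found no finger were Zfp839, Zfp935 and Zfp972, and none of these 3 passed in limma at the adjusted threshold.

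Clusters on the chromosomes were built by joining Zfp genes of any level whose gene bodies lay at most 500 kb apart. There were 23 clusters with 3 or more expressed members, holding 128 members in all. Of these members 9 were higher and 18 lower (21.1%), and of the 118 members outside clusters 10 were higher and 18 lower (23.7%), both shares being below the 48.3% of all tested genes. In 8 clusters no member passed, in 5 the calls were all higher, in 7 all lower and in 3 of both kinds. Each of these 3 held a call lost in most of the 16 alternatives, namely Zfp764 in 12, Zfp428 in 10 beside Zfp574 in 9, and Zfp628 in 9.

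The largest cluster spans chromosome 17 from 21008903 to 23599487 with 21 expressed members, all with a KRAB pattern. Here 2 members passed, both lower, where 48.3% of all tested genes passed in either direction. Of the 21 changes 10 were positive and 11 negative, with a median of -0.01. The fall of Zfp52 was therefore not shared along the cluster. Its nearest expressed Zfp neighbours did lie below control. Zfp948, the next member downstream, had 6.02, 6.12 and 6.18 FPKM in the labelled libraries and 7.60, 8.37 and 7.56 FPKM in the control libraries (log2 change -0.34, standard error 0.05; limma, adjusted p = 0.000614). Upstream, Zfp53 had 6.86, 6.04 and 6.97 FPKM in the labelled libraries and 8.73, 7.42 and 7.17 FPKM in the control libraries, with a limma adjusted p of 0.0581. Zfp51 ranged from 3.592 to 4.031 FPKM in the labelled libraries and from 4.035 to 4.687 FPKM in the control libraries, with an adjusted p of 0.0614 in limma. The groups did not overlap in any of these 4 adjacent members, by a narrow gap in Zfp51, as was the case below control in 27.6% of all tested genes. The next members on either side, Zfp54 and Zfp760, had groups that overlapped, with log2 changes of 0.05 and 0.20.

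**Figure D5:**
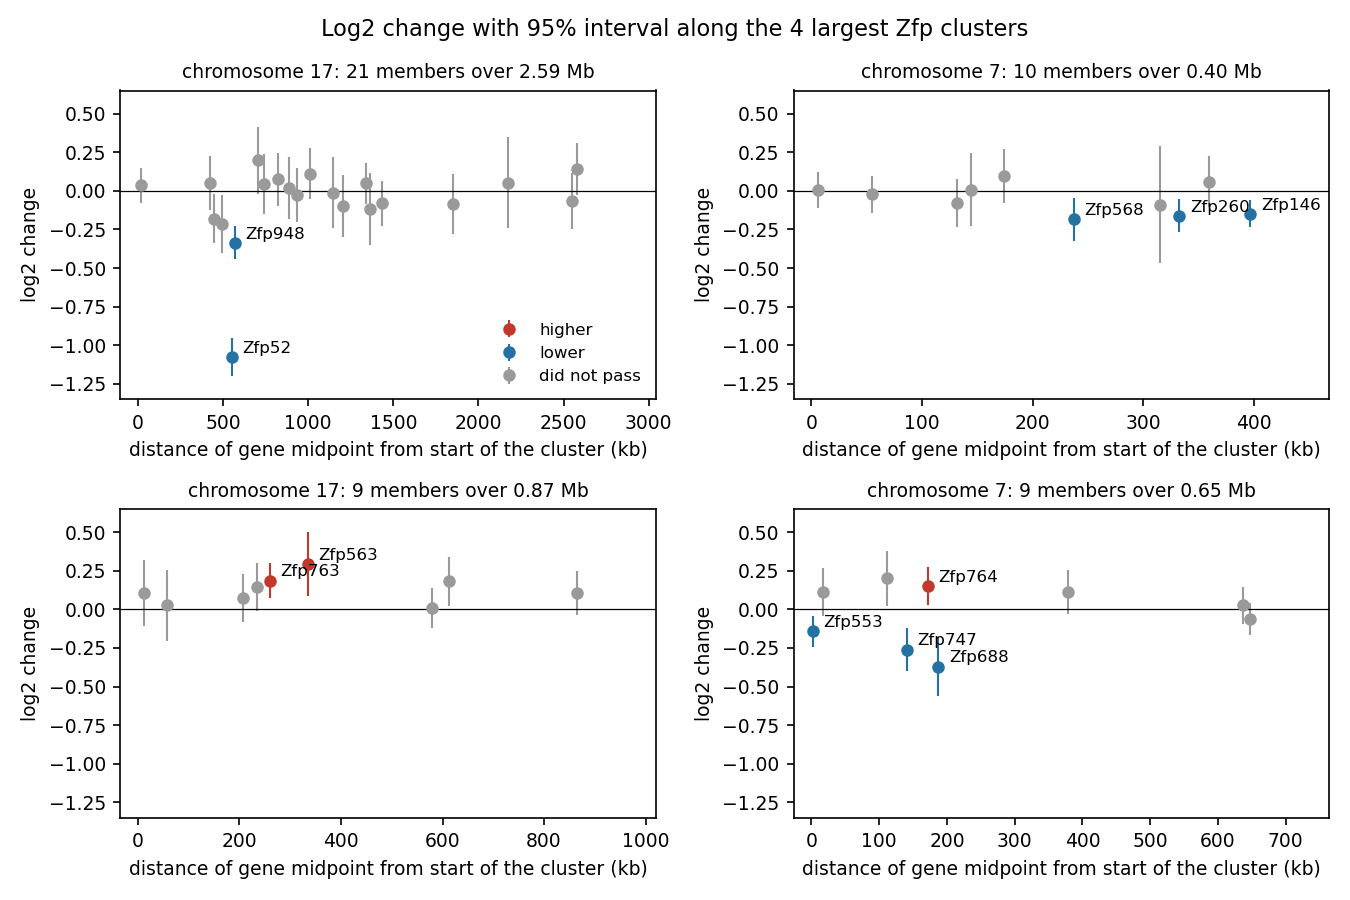
Log2 change of FPKM + 0.5, labelled Smyd4 shRNA over control shRNA, with its 95% interval (y axis) against distance of the gene midpoint from the start of the cluster in kilobases (x axis), for the 4 clusters with the most expressed Zfp genes. Zfp52 at -1.08 and Zfp948 at -0.34 stand next to each other in the cluster of 21 members, while the 9 members of the other chromosome 17 cluster all lie above 0.

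A second cluster of chromosome 17, from 32765496 to 33631779, had 9 expressed members, 8 of them with a KRAB pattern, and all 9 changes were positive with a median of 0.11. Zfp563 had 3.20, 3.10 and 4.02 FPKM in the labelled libraries and 2.74, 2.76 and 2.60 FPKM in the control libraries (log2 change 0.29, standard error 0.09; limma, adjusted p = 0.0277). Zfp763 had 3.08, 3.08 and 3.04 FPKM in the labelled libraries and 2.60, 2.62 and 2.68 FPKM in the control libraries (log2 change 0.19, standard error 0.05; limma, adjusted p = 0.0157). The other 7 did not pass, where 25.1% of all tested genes were higher. Under median-of-ratios scaling and without any one control library 8 of 9 changes were positive, and without replicate 2 of the labelled libraries 7 of 9. Without control replicate 1, and in DESeq2, none of the 9 passed.

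On chromosome 7 the cluster from 29768552 to 30169750 had 10 expressed members, with 3 lower and 0 higher. Over all tested genes 23.3% were lower and 25.1% higher. Zfp568, the KRAB repressor of a placental Igf2 promoter, had 3.11, 3.55 and 3.37 FPKM in the labelled libraries and 4.07, 3.74 and 3.78 FPKM in the control libraries. The groups did not overlap, and the call was lost in 8 of 16 alternatives (log2 change -0.19, standard error 0.06; limma, adjusted p = 0.0355). Zfp260, a partner of Gata4 in cardiomyocytes, named here after its values were seen, had 5.68, 6.17 and 6.01 FPKM in the labelled libraries and 6.63, 7.004 and 6.51 FPKM in the control libraries (log2 change -0.16, standard error 0.05; limma, adjusted p = 0.0207). Zfp146, at 16.3 ± 0.465 FPKM in the labelled libraries and 18.1 ± 0.693 FPKM in the control libraries, was also lower.

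The cluster of chromosome 7 from 127233061 to 127885996 had calls in both directions among 9 expressed members, 1 higher and 3 lower. Over all tested genes 48.3% passed, 25.1% higher and 23.3% lower. Zfp764 averaged 3.12 FPKM in the labelled libraries and 2.77 FPKM in the control libraries, while Zfp747 averaged 2.48 FPKM in the labelled libraries and 3.07 FPKM in the control libraries. The call on Zfp764, the single higher one, was lost in 12 of 16 alternatives, and that on the lower member Zfp553 in 7. Zfp764 and Zfp747 share 47.4% and 52.1% of their 31-base words with other genes, so the reads behind their opposite changes are uncertain. Zfp688 lies in the same cluster and shares 0.559%.

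The 3 members of the cluster on chromosome 18 from 23954688 to 24020810 were all lower, as were 23.3% of all tested genes. Zfp397 had 5.08, 5.67 and 5.40 FPKM in the labelled libraries and 7.10, 6.81 and 6.68 FPKM in the control libraries (log2 change -0.32, standard error 0.05; limma, adjusted p = 0.000976). Zfp35 averaged 7.82 FPKM in the labelled libraries and 9.08 FPKM in the control libraries. Zfp24, a factor of myelination in mice, averaged 7.37 FPKM in the labelled libraries and 8.23 FPKM in the control libraries. Without control replicate 3, or without replicate 1 of the labelled libraries, 2 of the 3 passed.

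In the other clusters no more than 2 members passed. The largest rises past the threshold there were Zfp574, Zfp970 and Zfp846 besides those given above, and the largest falls were Zfp428, Zfp212, Zfp628, Zfp868, Zfp647 and Zfp809. Among them Zfp212 had 6.90, 6.01 and 7.01 FPKM in the labelled libraries, against 8.07, 8.13 and 8.17 FPKM in the control libraries. Zfp970 shared 67.9% of its 31-base words with other genes. Of all members, 32 shared more than 20% of such words, and 5 of these 32 had passed. Over all members 22.4% passed, and over all tested genes 48.3%.

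The promoters of the members held fewer CG pairs in the median than those of all tested genes. RefSeq sequence on GRCm38.p6, from 250 bases before to 50 bases after the gene start, was matched for 204 members, and the median number of CG pairs was 15, against 22 over 8380 tested genes. At least 10 CG pairs occurred in 72.1% of the members' promoters and in 86.9% of those of tested genes. Members with a KRAB pattern had a median of 12 and those without it 19. By outcome the medians were 14 in 16 higher members, 17 in 27 lower members and 15 in 161 that did not pass. Zfp52 is shown as a promoter of few CG pairs, with its 5 pairs in capitals, at chr17:21535289-21535588 on the plus strand. RefSeq places this start upstream of the gene start in the authors' table, and the data do not show which start is used.
Zfp52 promoter: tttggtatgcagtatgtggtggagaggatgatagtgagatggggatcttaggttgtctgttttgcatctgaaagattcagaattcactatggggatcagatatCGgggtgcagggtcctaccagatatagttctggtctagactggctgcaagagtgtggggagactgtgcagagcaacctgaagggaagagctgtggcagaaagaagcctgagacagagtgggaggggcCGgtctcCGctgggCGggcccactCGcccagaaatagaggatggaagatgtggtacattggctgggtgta

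The genes that KRAB zinc finger proteins act through were compared last. Of 33 genes listed for the Trim28 and Setdb1 complex and its silencing machinery, 30 were tested, and 6 were higher, 9 were lower and 15 did not pass. The 15 of 30 past the threshold are in proportion close to the 48.3% of all tested genes, and the median of their log2 changes was 0.01. Trim28 averaged 91.9 ± 3.23 FPKM in the labelled libraries and 85.8 ± 0.930 FPKM in the control libraries (log2 change 0.10, standard error 0.03; limma, adjusted p = 0.0269). Setdb1 averaged 9.83 ± 0.381 FPKM in the labelled libraries and 10.7 ± 0.211 FPKM in the control libraries (log2 change -0.11, standard error 0.04; limma, adjusted p = 0.0401). These small changes had opposite signs, and the Trim28 call was lost in 4 of 16 alternatives and the Setdb1 call in 10. Among the HP1 genes, Cbx5 averaged 49.4 ± 1.603 FPKM in the labelled libraries and 69.0 ± 0.654 FPKM in the control libraries, and Cbx1 averaged 28.6 ± 0.485 FPKM in the labelled libraries and 26.4 ± 0.407 FPKM in the control libraries. Cbx3 was also lower, at 23.9 ± 0.728 FPKM in the labelled libraries and 26.0 ± 0.0754 FPKM in the control libraries (limma, adjusted p = 0.0114). The NuRD helicase Chd3 averaged 25.1 FPKM in the labelled libraries and 32.6 FPKM in the control libraries. Uhrf1 and Mta1 were higher and the H3K9 methyltransferase Ehmt2 was lower, with limma adjusted p between 0.000367 and 0.00338.

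The authors' deposited table of differing genes lists 40 of the 246 members (16.3%), 9 higher and 31 lower. It lists 25.2% of all 22246 genes of the expression table, which include genes under 1 FPKM, unlike the members. Of the 40 in the authors' deposited table, 35 also passed in limma, and 0 had the opposite sign. The edgeR quasi-likelihood test on recovered reads called 19 members higher and 53 lower, and 51 of these members were also called by limma. Of its 13775 tested genes, which include some under 1 FPKM, 23.3% were higher and 26.3% lower.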

How the data were processed

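RNA sequencing of 6 HL-1 libraries was analysed, 3 labelled Smyd4 shRNA and 3 labelled control shRNA, grouped and numbered by their titles and the shRNA field. Bowtie2 2.0.6, TopHat2 2.0.9 and the build GRCm38 are named in the submitters' processing notes. The sources used here name no read counter, annotation, strand setting or statistical test. The values analysed are FPKM as deposited by the authors, scaled by 1 factor per library. The deposited comparison table holds a normalized signal, which is reads divided by that factor, with log2 fold changes and p-values computed by the authors, for 5616 genes, and only genes it calls are listed. A constant of 41.6 linked FPKM times length to that signal, and reads were worked out from FPKM with it. The share that came out whole was 100% at a tolerance of 0.01. For genes outside the comparison table the length was picked to make the results whole, so that share is no check of their recovery. Lengths for 3321 genes, 66 members among them, are the smallest possible, so their reads are lower bounds. The edgeR and DESeq2 fits used these reads, and how far this affected their calls was not tested. The 246 members had 23 to 5311 reads in their shallowest library, with a median of 309.5.

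Symbols were matched for 22134 of 22246 identifiers. Coordinates are those of the authors' table, or of GENCODE M21 on GRCm38 for genes outside it; 4228 of 5616 listed genes have equal coordinates in both. Genes averaging 1 FPKM or more were tested on log2(FPKM + 0.5) with limma 3.58.1 (trend, R 4.3.3), Benjamini-Hochberg over all 11325 tested genes at 0.05. Alternatives changed the pseudocount, the filter, the scaling, the trend and the replicates used, added a replicate block, or ran edgeR 4.0.16 and DESeq2 1.42.0 on recovered reads. The fit was checked on simulated data. No table of RefSeq proteins was used here, so the KRAB and finger patterns were searched in translated GENCODE M21 coding sequences, in place of the planned RefSeq proteins. The KRAB pattern also matched 52 of 20985 coding genes without a finger. A C2H2 finger was read as C, 2 to 4 residues, C, 12 residues, H, 3 to 5 residues, H.

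The members, lists and tests were chosen with earlier results of these data known. Genes were named by a fixed rule: the 10 largest rises and falls past the threshold, the 6 highest levels, the largest rise and fall past the threshold in each cluster, the 3 genes on either side of the level rule, members without a finger, a list of members with roles of their own, and the partner genes Trim28 and Setdb1 with the 3 smallest adjusted p in each direction. Zfp24, Zfp35, Zfp51, Zfp53, Zfp54, Zfp146, Zfp260, Zfp553, Zfp747, Zfp760, Zfp763, Cbx3, Col1a1 and Dcn were named after their values were seen. Of the listed roles, Zfp423, Zfp521 and Zfp541 lay below the level rule.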

Additional observations from a re-analysis of the deposited data

How the results depend on the processing

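Of the 55 members past the threshold, 29 (7 higher and 22 lower) passed under all 16 alternatives, Zfp52, Zfp395 and Zfp365 among them. No result changed direction past the threshold. The count of higher members was 12 without the filter on low values, 29 under quantile normalization and 8 in DESeq2, against 19, and the KRAB members past the threshold were 12 in DESeq2, against 22. For the drop without the filter and the rise under quantile normalization the cause was not tested. Leaving out each library in turn gave 11 to 15 higher and 30 to 34 lower members. That was 17.1% to 19.2% of the members, while 40.2% to 44.1% of all tested genes passed. With all libraries the shares were 22.4% and 48.3%. In these fits 15 to 21 KRAB members and 11 to 14 partner genes passed, against 22 and 15. The medians of the members' log2 change ran from -0.04 to -0.02 and the Smyd4 log2 change from -0.10 to -0.04. The 11 higher members came without control replicate 2 and without control replicate 3. Of 964 values of named genes, 843 kept direction and side of the threshold, 110 no longer passed and 11 newly passed. Members numbered 274 at a level rule of 0.5 FPKM and 186 at 2 FPKM, and clusters 19 at a gap of 200 kb and 23 at 1000 kb. The median standard error of the log2 change was 0.09 for the 60 members between 1 and 2 FPKM and 0.04 for the 28 at 10 FPKM and above.

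Replicate numbers are shared by the groups, and the labels do not say whether they pair the libraries. The deviations of same-numbered libraries correlated at -0.03, 0.02 and 0.01, and those of differently numbered libraries at -0.06 to 0.05. With 3 libraries per group these values cannot show whether the libraries were paired. With the replicate block 13 members were higher and 36 lower, and 5141 of all tested genes passed against 5474.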

Other observations

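Of the 345 Zfp genes, 99 lay below a mean of 1 FPKM, with a median of 0.130 FPKM, and 43 of them below 0.1 FPKM. In limma without the filter on low values 4 of the 99 were higher in the libraries labelled Smyd4 shRNA and 6 lower, against 25.3% of all 22246 genes. Zfp704 on chromosome 3 stands out among them. It averaged 0.237 ± 0.0573 FPKM in the labelled libraries and 1.23 ± 0.0415 FPKM in the control libraries (SD, n = 3 each), on 69 to 465 reads, with a log2 change of -1.23 and a standard error of 0.09 (limma without the filter, adjusted p = 0.000223). Its control level alone would have passed the level rule, and its change is larger in size than the log2 change of -1.08 in Zfp52. The gene was named after its values were seen. In edgeR on recovered reads 51 of the 99 were tested, with 2 higher and 7 lower, against 49.5% of its 13775 tested genes.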
